A study of Mus musculus with 136 samples.

Results

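The genes described here are the 42 enzymes and carriers of fatty acid synthesis, elongation and oxidation on a list drawn up by gene symbol, and all 42 were found among the 47643 genes of the count table. The rule itself uses symbols and no measured value, but the list was drawn up with earlier results of these data known. They comprise 3 genes of synthesis, 8 of desaturation and elongation, 5 acyl-CoA synthetases that activate fatty acids, 9 enzymes of mitochondrial beta-oxidation, 5 auxiliary or peroxisomal oxidation enzymes, 3 electron transfer proteins, 4 fatty acid binding proteins and 5 genes of triglyceride storage and lipid droplets. RNA had been collected at E8.5 from single embryos and from the visceral yolk sac of the same conceptus, in pregnancies of the NOD (non-obese diabetic) strain. In this strain diabetes arises spontaneously, so the diabetic dams received no inducing drug, and dams were assigned to the diabetic group by their blood glucose and mated to males of the strain with normal glucose. All dams ate chow. The comparison of interest was between concepti of diabetic dams, with labelled glucose of 423 to 595 mg/dl and 1 conceptus recorded only as above the scale, and of normal dams, with 105 to 164 mg/dl. At 5-6 somite pairs there were 17 embryos and 17 yolk sacs per maternal condition (9 diabetic and 10 normal litters), and at 7-9 somite pairs 16 of each (6 diabetic and 7 normal litters). The stage of a yolk sac was that of its embryo. Litter D24M15 supplied 7 of the 16 diabetic concepti at 7-9 somite pairs.

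Fatty acid synthesis takes place in the cytosol, where citrate is cleaved to acetyl-CoA, carboxylated to malonyl-CoA and assembled into palmitate, which other enzymes then desaturate or elongate. For oxidation, an acyl-CoA synthetase activates the fatty acid, and cycles of dehydrogenation, hydration, a second dehydrogenation and thiolysis in the mitochondrion shorten it, with electrons passing through the electron transfer flavoprotein. The visceral yolk sac, whose outer layer is the visceral endoderm, takes up maternal nutrients and secretes lipoproteins before the placenta is functional.

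The libraries counted unique molecular identifiers at the 3′ ends of transcripts, so a count is a number of RNA molecules captured and does not grow with transcript length. Values below are normalized counts, that is counts divided by a size factor per library, and log2 fold changes come from the quasi-likelihood test of edgeR with Benjamini-Hochberg adjustment over all genes tested. A gene was called higher or lower at an adjusted p under 0.05. Library totals lay between 1017901 and 5658850 counts. The 10 visceral endoderm markers (Afp, Ttr, Apoa1 and others) summed to 16018 to 41869 (median 22428) in normal yolk sacs at 5-6 somite pairs and to 303 to 1114 (median 665) in the embryos. The 4 neural plate markers summed to 532 to 1032 (median 804) in those embryos and to 3.68 to 63.3 (median 30.6) in those yolk sacs. Neither sum overlapped between the tissues in these groups. A few libraries stood apart. In embryos the visceral endoderm sum reached 3362 in the diabetic group at 7-9 somite pairs, and in yolk sacs the sum of 5 cardiac markers reached 1371 in the normal group at 5-6, where its median was 80.9. For 2 concepti the labels of embryo and yolk sac gave different sexes. Since whole embryos and yolk sacs were measured, fewer cells of a type and less RNA per cell cannot be told apart in any value below.

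Sequences upstream of the transcription start (250 bases, RefSeq, GRCm38.p6) were at hand for 34 of the 42 genes, and 4 are shown: those of the genes at the extremes between the tissues, that of the synthase at the centre of the pathway, and that of a gene that shares its start region with its partner subunit. Fabp1, upstream at chr6:71199629-71199878 on the plus strand, has the most yolk sac-biased RNA of the list, and Fabp7, at chr10:57784673-57784922 on the plus strand, the most embryo-biased. Fasn, at chr11:120824548-120824797 on the minus strand, is the synthase of the embryo-biased synthesis group. Hadhb, at chr5:30155003-30155252 on the plus strand, starts 273 bases from Hadha by the RefSeq starts, and Hadha is read in the opposite direction. By the gene spans of another annotation (GENCODE) the 2 genes lie closer, with Hadha reaching to 30155162 and Hadhb starting at 30155248. Capitals mark TATAAA in Fabp1, CCAAT (or ATTGG on the other strand) in Fabp7 and Fasn, and GGGCGG in Hadhb.
Fabp1: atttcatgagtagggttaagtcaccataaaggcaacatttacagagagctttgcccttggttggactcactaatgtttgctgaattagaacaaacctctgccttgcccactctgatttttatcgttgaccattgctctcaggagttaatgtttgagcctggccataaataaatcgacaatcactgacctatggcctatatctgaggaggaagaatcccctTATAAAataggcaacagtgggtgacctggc
Fabp7: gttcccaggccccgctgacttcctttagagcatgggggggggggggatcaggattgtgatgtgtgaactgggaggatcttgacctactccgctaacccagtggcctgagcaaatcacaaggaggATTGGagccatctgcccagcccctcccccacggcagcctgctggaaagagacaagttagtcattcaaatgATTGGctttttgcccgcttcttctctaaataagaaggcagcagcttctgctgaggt
Fasn: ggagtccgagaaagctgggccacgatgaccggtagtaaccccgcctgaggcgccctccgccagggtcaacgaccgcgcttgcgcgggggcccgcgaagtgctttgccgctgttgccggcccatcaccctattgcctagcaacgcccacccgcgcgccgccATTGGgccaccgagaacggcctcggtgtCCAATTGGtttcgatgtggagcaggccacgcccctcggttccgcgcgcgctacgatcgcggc
Hadhb: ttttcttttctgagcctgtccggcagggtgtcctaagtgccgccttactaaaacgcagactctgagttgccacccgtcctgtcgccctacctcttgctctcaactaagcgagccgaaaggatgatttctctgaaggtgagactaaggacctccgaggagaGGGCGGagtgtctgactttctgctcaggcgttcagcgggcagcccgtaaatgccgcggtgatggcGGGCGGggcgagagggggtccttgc
Read on both strands, CCAAT, the NF-Y box, was present in 12 of 24 genes called higher in yolk sacs at both stages and in 2 of 7 called lower (Elovl5 and Fasn), against 37.5% of all 27033 genes with an upstream sequence. GGGCGG, the GC box, was present in 15 of the 24 and 3 of the 7, against 35.3% of all genes. Of the 34 genes, TATAAA was found in Fabp1 alone (14.3% of all genes), the E-box CACGTG in Elovl5 alone (6.86%) and TCACNCCAC, a sterol regulatory element, in Acsl1 alone (1.22%). CAAAGTCCA, an HNF4 site, was found in none (0.451% of all genes). In Fasn a pair of these boxes, CCAAT and ATTGG, share 2 bases. These are matches of letters in a 250-base window and were not compared with any measurement of binding. The window of Acaca, chr11:84195188-84195437, lies inside the GENCODE span of the gene, which starts at 84129672. For Acadl, Acadm, Acadvl, Etfb and Pnpla2 the first bases after the start were not found in a GENCODE transcript of the gene. These genes are counted above all the same.

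The tissue comparison separated the list by role. Genes of synthesis (3 of 3) and 5 of 7 tested genes of desaturation and elongation were higher in embryos, whereas activation, oxidation, electron transfer and storage genes were mostly higher in yolk sacs. At 5-6 somite pairs 27 of 40 genes tested were higher and 12 lower in yolk sacs, and at 7-9 somite pairs 27 of 39 were higher and 11 lower. Calls were common among all genes, however: 79.1% of the 11677 genes tested at 5-6 were called (39.3% higher and 39.7% lower), and 81.2% at 7-9 (38.6% higher and 42.6% lower). The median log2 fold change of the list was 1.05 at 5-6 and 0.92 at 7-9, against -0.0043 and -0.04 over all genes tested. The counts of calls were the same with the conceptus as a block (39 and 38).

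**Figure D1:**
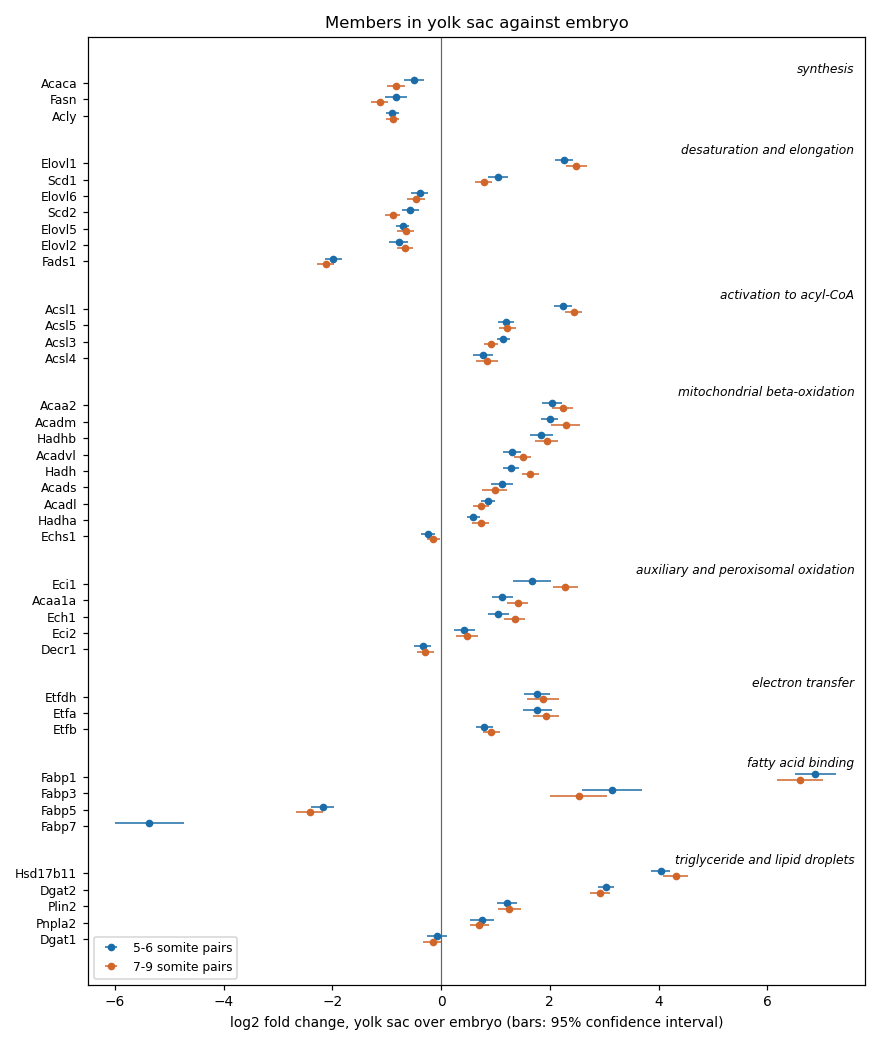
Log2 fold change of each gene in yolk sac over embryo at 5-6 (blue) and 7-9 (orange) somite pairs, grouped by role, with 95% confidence intervals from edgeR (34 and 32 concepti). The 3 synthesis genes lie left of 0 and the acyl-CoA synthetases and electron transfer genes right of 0, and Fabp1 and Fabp7 lie farthest from 0 in opposite directions.

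All 3 synthesis genes were higher in embryos. Fasn, which encodes the fatty acid synthase, had 321 to 956 (median 549) normalized counts in embryos and 69.9 to 486 (median 279.8) in yolk sacs at 5-6 somite pairs, and 395 to 888 (median 515) and 133 to 503 (median 239) at 7-9. The ranges overlapped, yet the embryo value exceeded that of its own yolk sac in 64 of 66 concepti. The log2 fold change of yolk sac over embryo was -0.83 (SE 0.10) at 5-6 and -1.13 (0.08) at 7-9. Acly, whose product cleaves citrate, had 198 to 314 (median 240.0) in embryos and 83.4 to 206 (median 122) in yolk sacs at 5-6, with fold changes of -0.90 (SE 0.06) and -0.89 (0.06). Acaca, the acetyl-CoA carboxylase that makes malonyl-CoA, had fold changes of -0.50 (SE 0.09) and -0.83 (0.08), and was higher in the embryo in 61 of 66 concepti.

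Of the 8 desaturation and elongation genes, 5 were lower and 2 higher in yolk sacs at both stages, and Fads2 was too low to be tested. Fads1, a desaturase of polyunsaturated fatty acid synthesis, was lower in all 66 yolk sacs than in the matching embryos: it had 97.9 to 205 (median 157) in embryos and 12.3 to 57.0 (median 35.7) in yolk sacs at 5-6, ranges that did not overlap, with fold changes of -1.98 (SE 0.08) and -2.13 (0.08). Elovl5 and Elovl2, elongases of polyunsaturated fatty acids, and Elovl6, the elongase of palmitate, fell by less. Their fold changes at 5-6 were -0.71, -0.78 and -0.40 (SE 0.06, 0.09 and 0.08). Elovl1, the elongase of very long saturated chains, went the other way: with 27.6 to 61.0 (median 42.4) in embryos and 131 to 333 (median 184) in yolk sacs at 5-6, it was higher in all 66 yolk sacs, by 2.26 (SE 0.08) and 2.48 (0.10) on the log2 scale. Fads2 had at most 22.1 normalized counts in any library and was higher in the embryo in 62 of 66 concepti.

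The stearoyl-CoA desaturases, which make monounsaturated fatty acids, split between the tissues. Scd2 had 595 to 1396 (median 797) in embryos and 191 to 803 (median 527) in yolk sacs at 5-6, and changed by -0.57 (SE 0.08) and -0.89 (0.07). Scd1 had 56.8 to 149.9 (median 83.4) and 101 to 376 (median 157), and changed by 1.04 (SE 0.09) and 0.78 (0.08). Scd2 remained the more abundant in both tissues. Of the counts of both genes, Scd1 took 10.8% ± 3.07 (SD, n = 17) in normal embryos at 5-6 and 24.6% ± 6.79 in the yolk sacs. The same share for Elovl1 against Elovl5 was 7.87% ± 1.13 in normal embryos and 39.2% ± 5.96 in yolk sacs.

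**Figure D2:**
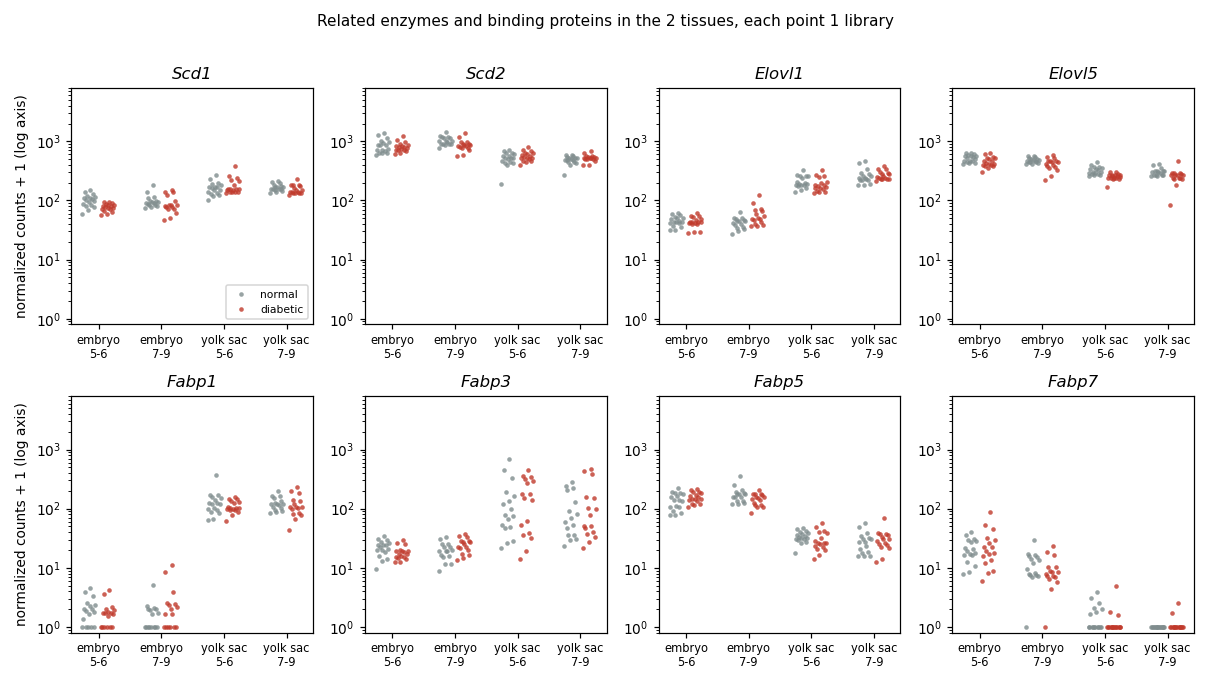
Normalized counts plus 1 (log axis) of 8 desaturase, elongase and binding protein genes in each library, by tissue and somite pairs, for normal (grey) and diabetic (red) pregnancies (17 libraries per group at 5-6 and 16 at 7-9). Scd1, Elovl1, Fabp1 and Fabp3 sit higher in yolk sacs and Scd2, Elovl5, Fabp5 and Fabp7 in embryos, and Fabp3 has the widest scatter in yolk sacs.

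The 4 acyl-CoA synthetase genes that could be tested were all higher in yolk sacs. Acsl1 rose most: it had 14.8 to 38.0 (median 23.6) in embryos and 71.7 to 151 (median 113) in yolk sacs at 5-6, without overlap, and was higher by 2.24 (SE 0.08) and 2.44 (0.08). Acsl3, Acsl5 and Acsl4 followed with 1.15, 1.19 and 0.78 at 5-6 (SE 0.06, 0.07 and 0.09). Acsl6, a synthetase best known from brain, was near the limit of detection, at no more than 8.95 in embryos, and had a count in 14 to 16 embryos of each group but in only 1 to 3 yolk sacs.

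Mitochondrial beta-oxidation rose in 8 of 9 genes at both stages. Acadm, the medium-chain acyl-CoA dehydrogenase, had 34.1 to 120.2 (median 61.0) in embryos and 156 to 337 (median 233) in yolk sacs at 5-6, and the ranges did not overlap. Its fold changes were 1.998 (SE 0.08) and 2.29 (0.13). The value at 7-9 includes the yolk sac of conceptus D28M36C, the library of lowest total (1017901 counts). Acadm stood at 1248 there, and the next highest yolk sac had 337. The mitochondrial thiolase gene Acaa2 was close to Acadm, with 2.04 (SE 0.09) and 2.24 (0.10), and both genes were higher in all 66 yolk sacs. The dehydrogenases for other chain lengths rose less, Acadvl (very long) by 1.31, Acads (short) by 1.11 and Acadl (long) by 0.86 at 5-6. Hadh, the hydroxyacyl-CoA dehydrogenase, was the most abundant gene of the list in yolk sacs, with 274 to 1098 (median 685) there and 198 to 394 (median 282) in embryos. Hadha and Hadhb encode the 2 subunits of the trifunctional protein. Hadhb rose by 1.84 (SE 0.11) and Hadha by 0.59 (0.06), and Hadhb took 11.3% ± 3.05 of their joint counts in normal embryos and 26.1% ± 7.17 in yolk sacs (SD, n = 17). Echs1, the enoyl-CoA hydratase, was the exception and was slightly lower in yolk sacs, with log2 fold changes of -0.24 (SE 0.06, adjusted p = 5.8e-04) and -0.14 (SE 0.06, adjusted p = 0.0355).

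Among the auxiliary and peroxisomal genes, Eci1 and Eci2 (enoyl-CoA isomerases), Ech1 (a dienoyl-CoA isomerase) and Acaa1a (the peroxisomal thiolase) were higher in yolk sacs, by 1.68, 0.43, 1.05 and 1.13 at 5-6. Decr1, the mitochondrial dienoyl-CoA reductase, was lower, with log2 fold changes of -0.34 (SE 0.08) and -0.29 (0.08). The electron transfer genes Etfa, Etfb and Etfdh were higher by 1.77, 0.79 and 1.77, and Etfa and Etfb, the flavoprotein subunits, were each higher in all 66 yolk sacs.

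The fatty acid binding proteins, small cytosolic carriers, gave the extremes in both directions. Fabp1, the liver type, had 0 to 3.60 (median 0.722) in embryos and 61.9 to 374 (median 103) in yolk sacs at 5-6, a difference of 6.88 (SE 0.19) on the log2 scale, and 6.60 (0.21) at 7-9. The groups did not overlap. Relative to the yolk sac mean, embryos held 0.755% of Fabp1 at 5-6 and 1.02% at 7-9, below the 1.57% to 4.87% and 1.30% to 3.31% of the 10 visceral endoderm markers. Fabp3, the heart type, was higher in yolk sacs by 3.14 (SE 0.28) and 2.53 (0.26), with 13.1 to 683 (median 108) there at 5-6 against 8.72 to 33.6 (median 18.4) in embryos. Its yolk sac values overlapped the embryo range and scattered more than those of the other genes, with an SD of 1.43 on the log2 scale within groups. Over the 66 yolk sacs, with group means removed, Fabp3 had a correlation of r = 0.56 with the trophoblast markers, 0.40 with neural plate, -0.42 with visceral endoderm, -0.32 with endothelium, -0.22 with cardiac and -0.15 with primitive erythroid markers, values from the same libraries that serve as a description. The trophoblast sum ran from 6.57 to 794 (median 213) in diabetic and 70.5 to 542 (median 164) in normal yolk sacs at 5-6, and the part of these markers in the Fabp3 levels was not tested.

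Fabp5, the epidermal type, and Fabp7, the brain type, were the embryo-biased carriers. Fabp5 had 75.8 to 227 (median 144) in embryos and 13.1 to 56.8 (median 30.1) in yolk sacs at 5-6, was higher in the embryo in all 66 concepti, and changed by -2.18 (SE 0.11) and -2.42 (0.12). Fabp7 had 5.08 to 85.8 (median 18.4) in embryos and 0 to 3.95 (median 0) in yolk sacs, a fitted difference of -5.37 (SE 0.32). At 7-9 somite pairs Fabp7 did not pass the filter on low counts in this comparison.

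The storage genes were led by Hsd17b11, a dehydrogenase of lipid droplets, which had 5.22 to 23.5 (median 12.3) in embryos and 115 to 349.5 (median 196) in yolk sacs at 5-6 and was higher by 4.04 (SE 0.09) and 4.32 (0.12). In embryos its level went with the visceral endoderm score (r = 0.70 over 66 embryos, group means removed). Dgat2, an acyltransferase that completes triglycerides, had 18.5 to 56.3 (median 36.4) and 185 to 424 (median 289) and rose by 3.03 (SE 0.07) and 2.92 (0.09). Neither gene overlapped between the tissues at 5-6. Dgat1, which catalyzes the same step, was the only tested gene of the list that was called at neither stage: it had 27.9 to 82.8 (median 54.5) in embryos and 31.8 to 94.1 (median 49.6) in yolk sacs, with 95% intervals of the log2 fold change of -0.25 to 0.11 at 5-6 and -0.33 to 0.02 at 7-9. Plin2, the coat protein of lipid droplets, and Pnpla2, the lipase that opens triglyceride breakdown, were higher in yolk sacs by 1.21 (SE 0.09) and 0.75 (0.11).

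Ranked by mean level in embryos, Scd2 led with 895, followed by Fasn (544), Elovl5 (468), Acsl3 (300.2) and Hadh (269.6). Scd2 exceeded Fasn in 62 of 66 embryos and Elovl5 exceeded Acsl3 in 62, but Fasn exceeded Elovl5 in 45 and Acsl3 exceeded Hadh in 41. In yolk sacs Hadh led with 721, ahead of Acsl3 (600.3), Scd2 (524), Plin2 (372) and Acsl4 (369.5). Hadh exceeded Acsl3 in 48 of 66 yolk sacs and Scd2 exceeded Plin2 in 54, while Plin2 exceeded Acsl4 in only 28.

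A second list of 105 genes around these pathways, comprising regulators, fatty acid entry and the carnitine shuttle, further enzymes and lipid droplet proteins, was followed beside them. At 5-6 somite pairs 52 of 72 tested were higher and 13 lower in yolk sacs, and at 7-9 50 of 71 and 13, against 39.3% higher and 39.7% lower of all genes at 5-6 and 38.6% and 42.6% at 7-9. Fabp2, the intestinal binding protein, Cidec and Cideb, lipid droplet proteins, and Ehhadh, the peroxisomal bifunctional enzyme, led at 5-6 with 5.74, 5.40, 4.95 and 4.58. At 7-9 Mttp, the triglyceride transfer protein of lipoprotein assembly, took the place of Ehhadh with 4.02. Of 11 regulators tested at 5-6, 9 were higher in yolk sacs and 0 lower, with a median log2 fold change of 1.43.

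From 5-6 to 7-9 somite pairs genes of the list changed in both tissues, and Eci2 and Acly rose in both. In embryos 5 of 38 genes tested rose and 6 fell, against 14.6% and 15.2% of all 11304 genes tested (29.8% in either direction). Littermates were correlated (0.167 in this fit), and with counts summed per litter 5 of the 11 calls in embryos were kept. In yolk sacs 11 of 39 rose and 1 fell, against 21.7% and 18.3% of 10857 genes (40.0% in either direction), and 3 rather than 1 fell without the yolk sac of conceptus D28M36C, whose Acadm level stands apart. The median log2 fold change was 0.08 in embryos (-0.01 over all genes tested) and 0.10 in yolk sacs (0.01).

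In embryos the largest change was that of Fabp7, which went from 5.08 to 85.8 (median 18.4) to 0 to 28.7 (median 7.43) normalized counts, a fall by 1.19 (SE 0.22) on the log2 scale. Acadm went from 34.1 to 120.2 (median 61.0) to 27.1 to 71.6 (median 48.1) (-0.39, SE 0.08). The ranges overlapped in both. Acsl1, Hadh, Echs1 and Elovl2 fell as well, with -0.26, -0.22, -0.21 and -0.19. Eci2 rose from 16.6 to 56.9 (median 30.3) to 24.5 to 66.4 (median 39.5) (0.43, SE 0.09), and Acaca, Fads1, Elovl6 and Acly rose by 0.32, 0.21, 0.20 and 0.15. With counts summed per litter Fabp7, Acadm, Eci2, Acaca and Elovl6 kept their call, while Acly, Acsl1, Echs1, Elovl2, Fads1 and Hadh did not pass. Of the 5 cardiac markers 4 were also higher at 7-9 (median 0.58), as were all 3 primitive erythroid markers tested (median 4.25), whose part was not tested. With the cardiac score as a covariate, added after the data were seen, 5 of the 11 calls remained. In normal pregnancies alone 4 genes were called, 3 of them among the 11. In diabetic pregnancies alone 11 were called, 6 of them among the 11 of the joint fit, and the other 5 were Etfb (0.43, adjusted p = 0.00117), Elovl1 (0.43), Pnpla2 (0.41), Fabp3 (0.45) and Ech1 (0.39).

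In yolk sacs 4 of the 5 auxiliary oxidation genes rose, and the median of the 5 was 0.52 on the log2 scale. Eci1 went from 6.57 to 33.1 (median 14.8) to 12.3 to 37.3 (median 26.3) (0.66, SE 0.11), and Ech1 from 35.1 to 129 (median 57.4) to 59.2 to 171 (median 86.1) (0.55, SE 0.09). Eci2, Acaa1a, Elovl1 and Acadvl rose by 0.52, 0.49, 0.44 and 0.42, and Hsd17b11, Etfb, Acaa2, Acly and Hadh by 0.38, 0.35, 0.28, 0.21 and 0.18. The stage groups overlapped in each of these genes. Acsl3 fell, from 363 to 798 (median 662) to 374 to 752 (median 525) (-0.28, SE 0.06). Without the yolk sac of conceptus D28M36C, a fit added after the data were seen, Acadm (-0.24, adjusted p = 0.00526) and Fasn (-0.25, adjusted p = 0.0333) fell as well. Visceral endoderm markers moved along: 8 of 10 were higher and 1 lower at 7-9, with a median of 0.59, and their sum in normal yolk sacs went from 16018 to 41869 (median 22428) to 21639.8 to 53508 (median 32285). The 5 primitive erythroid markers summed to 5609.8 to 23618 (median 8642) and 7959 to 42118 (median 18126) in the same groups. The part of either list in the changes was not tested. In normal pregnancies alone 5 genes were called, all among the 12, and in diabetic pregnancies alone 10, 9 of them among the 12. Here too the share of all genes is not given. The direct test, the interaction of diabetes and stage in yolk sacs, called 0% of all genes.

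**Figure D3:**
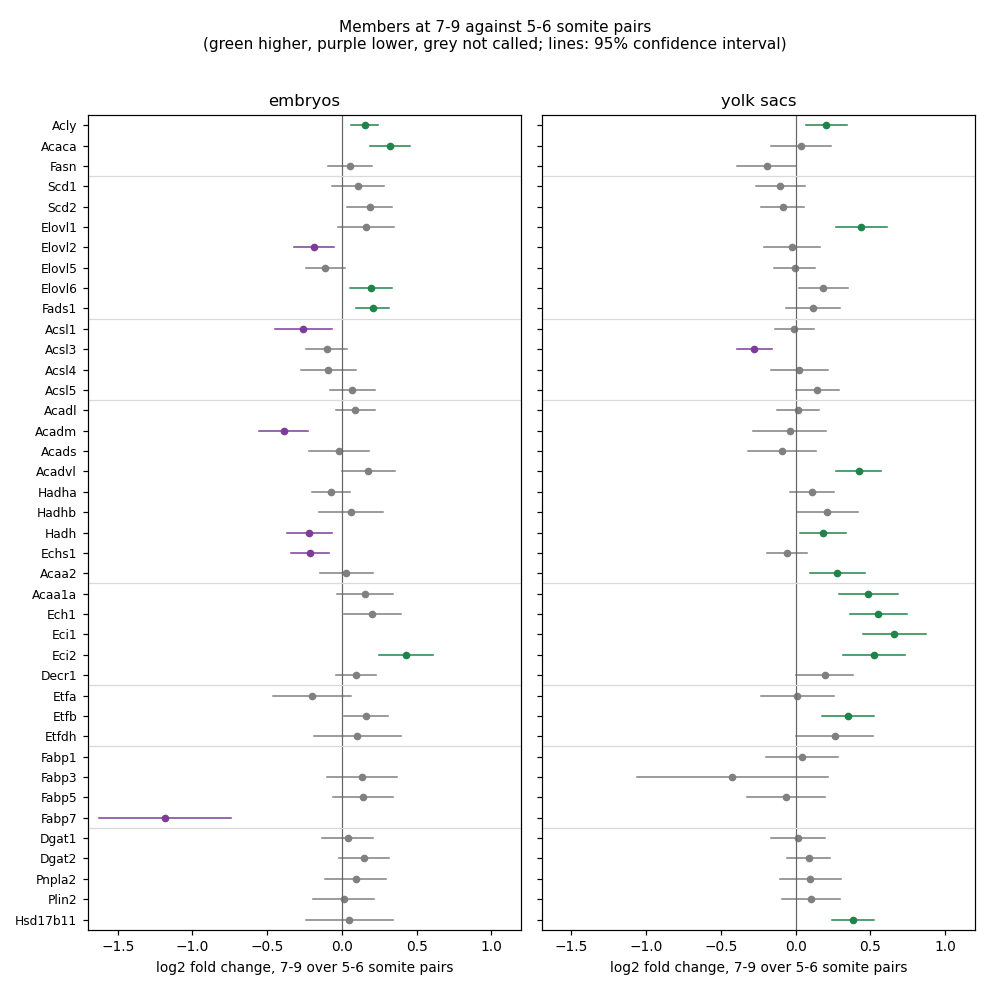
Log2 fold change of each gene from 5-6 to 7-9 somite pairs in embryos (left) and yolk sacs (right), in the order of their roles, with 95% confidence intervals from edgeR (34 and 32 libraries per tissue). In yolk sacs 11 genes are marked higher (green) and 1 lower (purple), and in embryos 5 and 6.

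The test of the difference between the tissues in this change called 1 of 40 genes, Hadh, which fell in embryos and rose in yolk sacs (interaction 0.41, SE 0.11, adjusted p = 0.014), with 3.04% of all 12183 genes called. The call was lost with counts summed per litter (adjusted p = 0.0981) and without a filter on low counts (0.0577). Hadh went from 198 to 394 (median 282) to 84.7 to 348 (median 254) in embryos and from 274 to 1098 (median 685) to 348 to 1236 (median 775) in yolk sacs. Eci1, Scd2 and Ech1 followed with interactions of 0.66, -0.28 and 0.35 and adjusted p of 0.0743, 0.14 and 0.162, and did not pass. Among the surrounding genes, 17 of 62 were called with stage in embryos and 31 of 72 in yolk sacs, shares close to the 29.8% and 40.0% of all genes. Those with the largest fold changes are given as values. Cd36, a fatty acid translocase, rose by 1.26 (SE 0.25) in yolk sacs and its change differed from that in embryos (interaction 1.19, adjusted p = 0.00164). The paper lists average Cd36 levels in yolk sacs near or under 10 normalized counts at both stages. Both values for Cd36 therefore lie close to the limit of this depth. Decr2, the peroxisomal dienoyl-CoA reductase, and Mogat2, an acyltransferase of triglyceride synthesis, rose by 0.75 and 0.69 in yolk sacs, with interactions of 0.58 and 0.41, and Ppara, a nuclear receptor that governs oxidation genes, fell by 0.69. In embryos Insig1, which restrains sterol-regulated transcription, and Slc25a1, the citrate carrier, rose by 0.42 and 0.34, and Acad11 and Bdh1 had -0.56 and -0.38.

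Embryos of diabetic and normal pregnancies differed in few genes of the list at 5-6 somite pairs. Scd1, the less abundant stearoyl-CoA desaturase, was lower under diabetic conditions, with 56.8 to 94.0 (median 75.7) normalized counts against 57.7 to 149.9 (median 101). The diabetic values covered the lower part of the normal range, and each of the 9 diabetic litter means was under the median of those from the 10 normal dams. The log2 fold change was -0.39 (SE 0.10, adjusted p = 0.0377). It was the 1 gene called of 38 tested (Acsl6, Fads2, Fabp1 and Eci1 were too low to be tested), against 1.46% of all 11004 genes (0.872% lower and 0.591% higher), and the median of the list was -0.07 against 0.0038 over all genes. The call was lost with the litter as a random block (adjusted p = 0.201), with counts summed per litter (0.365), with somite number and sex as covariates (0.0796), with the mean log2 level of 5 cardiac markers as a covariate (0.0758) and without any of the litters D23M11, D24M15, D28M02, D28M23, D28M53, N28M05, N28M06, N28M22, N28M25 or N28M30, where the fold change lay between -0.44 and -0.35.

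The next genes by p came close without passing. Etfdh, the dehydrogenase that hands electrons from the flavoprotein to ubiquinone, had 8.71 to 24.3 (median 15.3) in diabetic and 4.55 to 18.3 (median 9.00) in normal embryos, and the fold change was 0.58 (SE 0.17, adjusted p = 0.0665). All 9 diabetic litter means lay above the normal median. Acsl5 had 15.3 to 27.3 (median 25.1) and 19.6 to 43.9 (median 28.4), with -0.33 (SE 0.10, adjusted p = 0.0726). At an unadjusted p under 0.05 there were 11 of 38 genes, against 2313 of all 11004 genes tested, among them the 3 synthesis genes Fasn, Acaca and Acly, with log2 fold changes of -0.25, -0.22 and -0.14 and adjusted p of 0.141, 0.188 and 0.234. Of the surrounding genes 1 of 62 was called (1.46% of all genes), Mlx, a partner of glucose-responsive transcription factors, which was higher by 0.52 (SE 0.14, adjusted p = 0.046).

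At 7-9 somite pairs 5 of 37 genes tested were higher and 1 was lower in embryos of diabetic pregnancies (Fabp7 too was below the filter), against 5.20% and 3.89% of all 10628 genes (9.09% in either direction). The median of the list was 0.10 and that of all genes -0.01. In the mouse genome build GRCm38, which the deposited table also used (as mm10), Etfb lies at chr7:43444083-43457800, Ech1 at chr7:28825217-28832247, Plin2 at chr4:86648386-86670060, Elovl1 at chr4:118428093-118432953 and Acsl4 at chrX:142317993-142390535, and Scd1 at chr19:44394455-44407879, each as the span of a protein-coding gene. The higher genes act in oxidation (Etfb, Ech1, Acaa2), in lipid droplets (Plin2) and in elongation (Elovl1), and the lower gene, Acsl4, encodes an acyl-CoA synthetase that prefers polyunsaturated fatty acids.

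Etfb, the beta subunit of the electron transfer flavoprotein, had 143 to 323 (median 213) in diabetic and 116 to 219.9 (median 164) in normal embryos. Single embryos overlapped, while the 6 diabetic litter means (200.1 to 290.4) lay above the 7 normal ones (129 to 180.2). The fold change was 0.40 (SE 0.10, adjusted p = 0.0121). Ech1 had 20.8 to 68.1 (median 39.2) and 18.5 to 49.6 (median 26.7), with 0.50 (SE 0.13, adjusted p = 0.018), and Acaa2 had 44.2 to 101 (median 67.5) and 27.6 to 95.5 (median 44.2), with 0.48 (SE 0.14, adjusted p = 0.0265). In both, the groups overlapped and all 6 diabetic litter means lay above the normal median.

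Plin2 had 102 to 376 (median 175) in diabetic and 81.7 to 227 (median 131.6) in normal embryos, with 0.48 (SE 0.15, adjusted p = 0.0353), and its diabetic litter means too lay above the normal median. Elovl1 had 35.8 to 125 (median 48.8) and 26.5 to 62.7 (median 42.2), with 0.44 (SE 0.14, adjusted p = 0.0486), and 1 of the 6 diabetic litters was below the normal median. Acsl4 had 57.0 to 241 (median 179) and 159 to 401 (median 235), with -0.50 (SE 0.15, adjusted p = 0.0289), and all 6 diabetic litter means lay below the normal median. The groups overlapped in each of the 3 genes, and the ends of the ranges were set by single embryos. Of 55 surrounding genes tested 2 were called, a smaller share than the 9.09% of all genes, Hsd17b10 (a mitochondrial dehydrogenase, 0.29, adjusted p = 0.0265) and Tecr (the reductase of the elongation cycle, 0.32, adjusted p = 0.0441). Calls of surrounding genes, in this and the other comparisons, were not followed with litter sums or the litter as a random block.

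**Figure D4:**
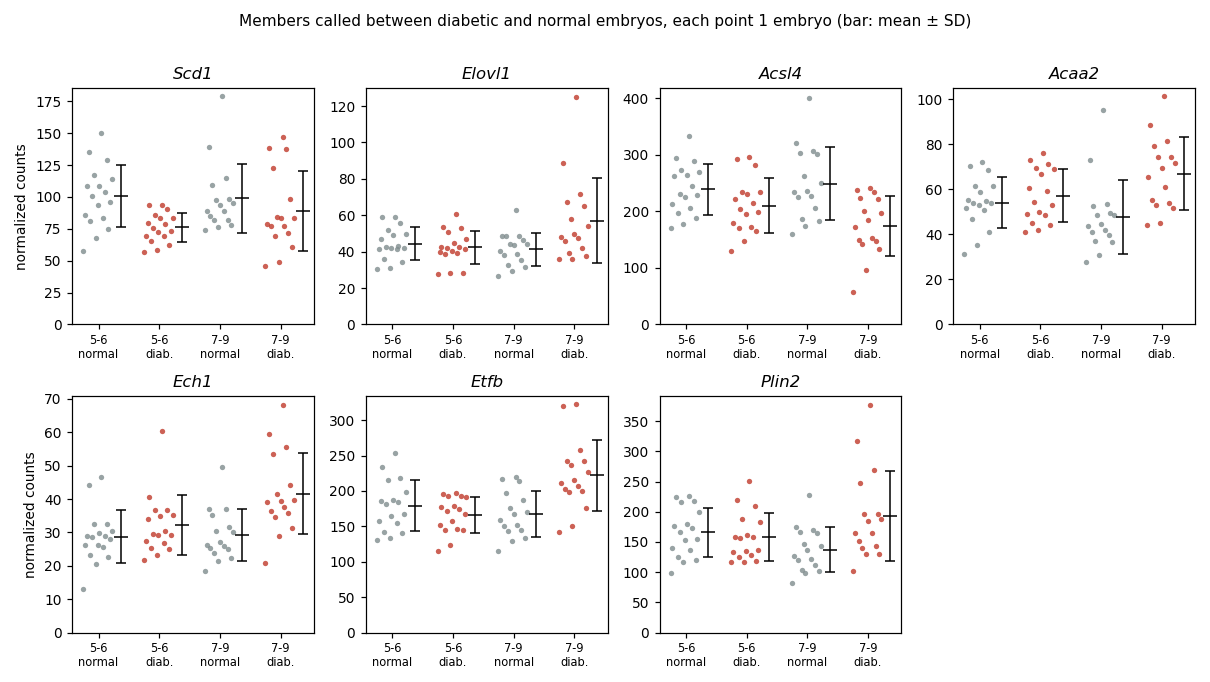
Normalized counts of the 7 genes called between diabetic (red) and normal (grey) embryos, 1 point per embryo, at 5-6 and 7-9 somite pairs, with mean ± SD as bars. Scd1 is lower in diabetic embryos at 5-6 somite pairs, and Etfb, Ech1, Acaa2, Plin2 and Elovl1 are higher and Acsl4 lower at 7-9, with overlap between the groups in each.

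Some heart muscle markers moved with the same contrast. At 7-9 somite pairs the 5 cardiac markers summed to 1638 to 2911 (median 2086) in diabetic and 1098 to 2018 (median 1562) in normal embryos, and Myl7 and Actc1 were called higher (0.69 and 0.39, adjusted p = 7.0e-04 and 0.0074), with a median of 0.31 over the 5. At 5-6 the sums were 137 to 1901 (median 1049) and 653 to 2105 (median 1405), with 0 of 5 called and a median of -0.21. When the mean log2 level of these markers was added as a covariate, a fit chosen after the data were seen, none of the 6 genes passed (adjusted p from 0.192 to 0.632) and Acaca was called lower (-0.36, adjusted p = 0.0138). The log2 fold changes in this fit were 0.41 for Plin2, 0.38 for Ech1, 0.34 for Acaa2, 0.25 for Etfb, 0.17 for Elovl1 and -0.18 for Acsl4, all in the same direction as without the covariate. The cardiac level and the maternal condition cannot be told apart in this fit. The visceral endoderm sum was 141 to 3362 (median 537) in diabetic and 96.3 to 1449.8 (median 449) in normal embryos at 7-9 (0 of 8 markers called), and with that score as a covariate 5 genes passed. Primitive erythroid markers had a median of 1.23, 0 of 3 called, and their part was not tested. Endothelium, neural plate and trophoblast markers had medians of -0.03, -0.17 and -0.23 at 7-9, with 0 of 5, 0 of 4 and 0 of 1 called.

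Embryos of 1 litter share their dam, and the fitted correlation between littermates was 0.251 at 5-6 and 0.128 at 7-9 somite pairs. With the litter as a random block only Etfb passed at 7-9 somite pairs (adjusted p = 0.0371), and with counts summed per litter no gene of the list passed, with adjusted p of 0.0722 to 0.157 for the 6, while 8 of all genes did. Etfb passed without any single litter, but the number of genes called fell to 2 without D28M36, 3 without N28M03 and 1 without N28M05.

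In yolk sacs no gene of the list passed between diabetic and normal pregnancies at either stage, of 39 tested at each (Acsl6, Fads2 and Fabp7 were below the filter). Over all genes 0% were called at 5-6 and 0.0194% at 7-9. With no adjustment, 2 genes at 5-6 and 3 at 7-9 had p under 0.05, against 8.42% and 10.9% of all genes tested, and the count from DESeq2 was 0 at both stages. The medians of the list were -0.01 and 0.04, against -0.0044 and 0.02 over all genes. The lowest p was that of Elovl5 at 5-6, which had 171 to 307 (median 255) in diabetic and 262 to 440.3 (median 308) in normal yolk sacs. The ranges overlapped, and 8 of the 9 diabetic litter means lay below the normal median. Its fold change was -0.33 (SE 0.08, unadjusted edgeR p = 9.1e-05, adjusted p = 0.308), and at 7-9 it was -0.24 (SE 0.11, adjusted p = 0.435). Hsd17b11 at 5-6 had 115 to 216 (median 178) and 169.6 to 349.5 (median 211), with -0.34 (SE 0.09, adjusted p = 0.308), and all 9 diabetic litter means lay below the normal median. Decr1 came next at 5-6 (-0.22, adjusted p = 0.643).

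At 7-9 somite pairs the yolk sac genes of lowest p were Acaca, with 41.8 to 131 (median 72.2) in diabetic and 45.4 to 83.2 (median 59.5) in normal yolk sacs (0.32, SE 0.12, adjusted p = 0.365), and Acadvl, with 26.5 to 71.9 (median 53.5) and 24.6 to 70.4 (median 44.9) (0.27, SE 0.11, adjusted p = 0.382). Neither passed, and the groups overlapped. Acadm in the diabetic yolk sac of conceptus D28M36C stood at 1248, while the next highest yolk sac had 337, and without this library the count of genes called remained 0.

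**Figure D5:**
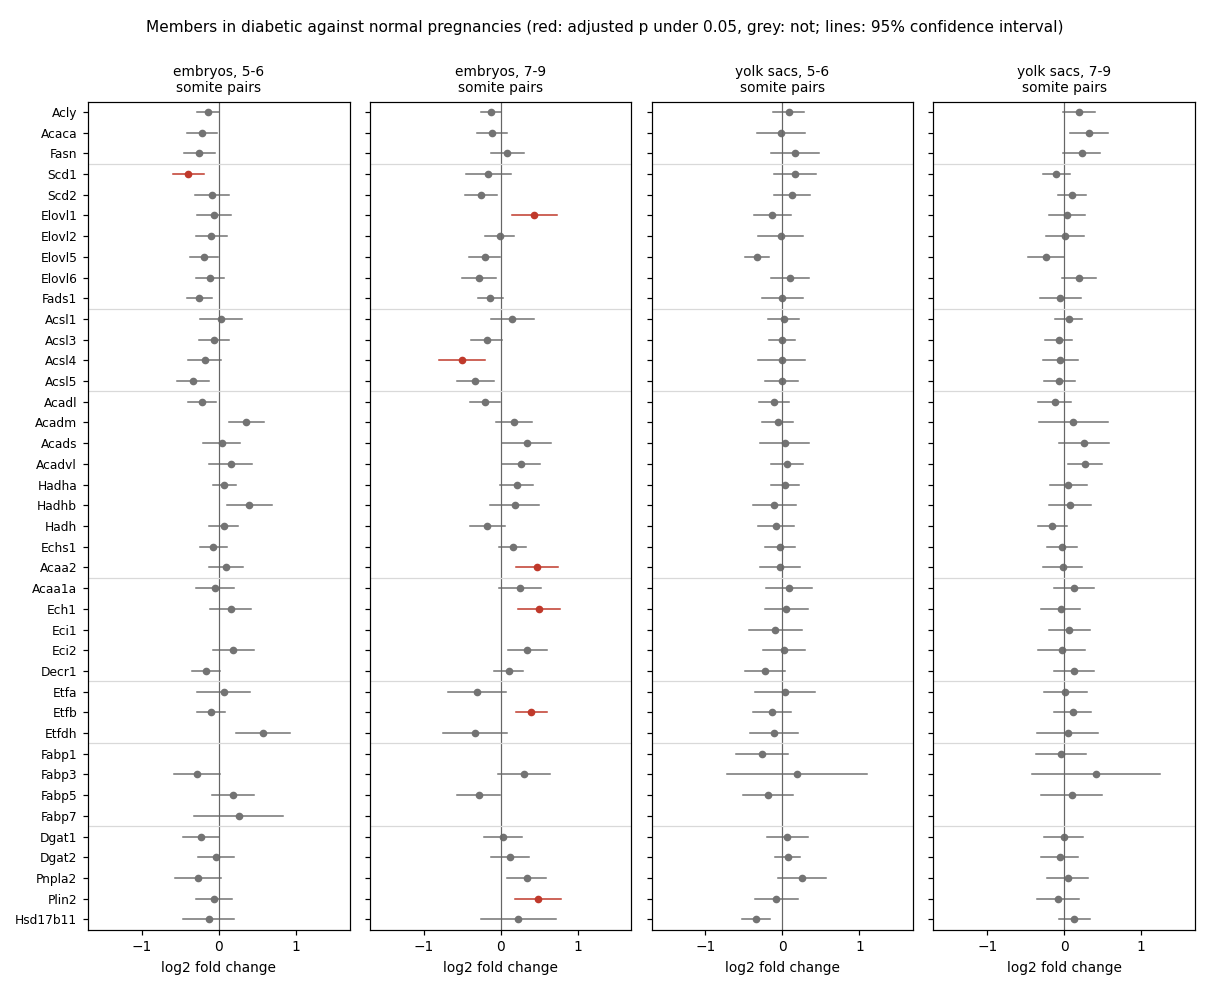
Log2 fold change of each gene in diabetic over normal pregnancies, in embryos and yolk sacs at both stages, with 95% confidence intervals from edgeR (17 libraries per group at 5-6 and 16 at 7-9 somite pairs). Scd1 is the gene called at 5-6 in embryos (red), 6 genes are called at 7-9 in embryos, and none in yolk sacs.

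Whether the embryonic differences changed with stage was tested as an interaction. In embryos 3 of 38 genes were called, against 8.70% of all genes tested, and the median was 0.13 (0.01 over all genes). Etfb had 115 to 197 (median 172) in diabetic and 131 to 254 (median 182) in normal embryos at 5-6, where the log2 fold change was -0.10, against 0.40 at 7-9 (interaction 0.52, SE 0.14, adjusted p = 0.0146). Etfdh turned the other way: at 7-9 it had 2.78 to 20.8 (median 11.2) in diabetic and 8.15 to 23.8 (median 13.3) in normal embryos, and the interaction was -0.90 (SE 0.27, adjusted p = 0.0305). Pnpla2 had 7.83 to 20.7 (median 17.2) and 5.60 to 31.1 (median 19.9) at 5-6 and 11.4 to 31.1 (median 20.9) and 10.2 to 22.6 (median 16.4) at 7-9 (interaction 0.63, SE 0.19, adjusted p = 0.0331). Plin2 came next and did not pass (0.57, adjusted p = 0.0508). The cardiac markers Myl7 and Actc1 were called in the same interaction (0.91 and 0.81), and none of the 3 genes passed with the cardiac score as a covariate or with counts summed per litter. With the cardiac score the interactions were 0.40 for Etfb, -0.74 for Etfdh and 0.66 for Pnpla2 (adjusted p = 0.0963, 0.13 and 0.0676), and with litter sums 0.60, -0.88 and 0.62 (adjusted p = 0.14, 0.195 and 0.207).

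Among the surrounding genes 6 of 62 were called in this interaction, close to the 8.70% of all genes. Those with the largest interactions were Gpat3 and Gpat4, acyltransferases of glycerolipid synthesis (-0.96 and 0.58), Nr1h3, a sterol-sensing receptor (0.91), and Mlx (-0.70). In yolk sacs the interaction of diabetes and stage called 0 of 39 genes (0% of all genes, 1 gene of the list at an unadjusted p under 0.05 against 5.84% of all genes). The lowest p there was that of Hsd17b11 (0.48, SE 0.13, adjusted p = 0.394).

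The effect of diabetes was not shown to differ between embryo and yolk sac for any gene of the list. At 5-6 somite pairs 0 of 40 genes were called in that interaction (0% of all genes, 7 of the list at an unadjusted p under 0.05 against 7.66% of all genes), and at 7-9 0 of 39 (0.389% of all genes, 9 of the list at an unadjusted p under 0.05 against 17.7% of all genes). The DESeq2 counts were 0 as well. Scd1 had the lowest p at 5-6 (0.57, SE 0.17, adjusted p = 0.405), before Etfdh (-0.67), Acadm (-0.41) and Pnpla2 (0.54). At 7-9 Elovl6 (0.48, SE 0.16, adjusted p = 0.0933), Ech1 (-0.53), Acaca (0.44) and Plin2 (-0.56) came first.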

How the data were processed

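RNA from 66 embryos and the yolk sacs of the same concepti had been sequenced from 3′ ends with unique molecular identifiers. The authors deposited 1 table of counts per gene, made per the submitters' processing notes with STAR, HTSeq and mm10 (versions not given in the sources used here). Of 136 libraries, 4 duplicates were left out. Totals were 1017901 to 5658850 counts (median 2302819), which limits the genes under about 10 counts.

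Groups followed the labels. Deposited counts were tested with edgeR 4.0.16 (R 4.3.3): TMM scaling, filterByExpr with a minimum count of 10, a quasi-likelihood fit and two-sided Benjamini-Hochberg adjusted p over all genes tested. Only the libraries of a comparison entered its fit. Tissue comparisons carried maternal condition as a term, as did stage comparisons. Levels are counts divided by DESeq2 1.42.0 size factors over 132 libraries. The fits were also run on simulated counts, drawn independently for each library and without a litter effect. That run cannot show how the p-values hold for littermates. Littermates share a dam, and p-values measure the spread between these samples.

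Members, gene lists and tests were chosen with earlier results of these data known. Named with full values were all genes called between maternal conditions and the 3 of lowest p where fewer than 3 were called. In tissue and stage comparisons up to 6 genes per direction with the largest fold change were named. In interactions up to 4 of lowest p, and among related genes up to 4 called per comparison, were named. Other genes are given by role. Embryo and yolk sac were paired by the conceptus in their titles. Deviations from group means of the 2 tissues of a conceptus correlated with r from -0.33 to 0.54 (median 0.07; 31 of 66 pairs over 0.1, 10897 genes). Alternatives were DESeq2, RLE size factors, other filters, litter sums, litter as a random block (limma 3.58.1), conceptus as a block, covariates, other sets of samples, and leaving out each litter. The cardiac covariate and the fit without yolk sac D28M36C were chosen after seeing the data.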

Additional observations from a re-analysis of the deposited data

Results flagged for a closer look

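In embryos the difference between diabetic and normal pregnancies changed between 5-6 and 7-9 somite pairs by the test of the interaction itself for Etfb (0.52 on the log2 scale), Etfdh (-0.90) and Pnpla2 (0.63). The change with stage differed between embryo and yolk sac for Hadh (0.41). With counts summed per litter none of these 4 differences passed. Those of Etfdh, Pnpla2 and Hadh were also lost without a filter on low counts, and those of Etfb, Etfdh and Pnpla2 with the cardiac score as a covariate. The 3 of 38 genes called in the first interaction compare with 8.70% of all genes.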

How the results depend on the processing

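Among the genes named per comparison, no log2 fold change reversed its sign under any alternative that was run, but many calls were lost. In embryos at 5-6 somite pairs the 1 gene called between maternal conditions became 3 with DESeq2, 2 with the title number as covariate or all 8 groups in 1 fit, and 0 with litter sums, the litter as random block, somite number and sex, or the cardiac score. Leaving out 1 litter gave 0 to 3, with Fads1 in place of Scd1 without N28M30, 2 genes without N28M07 and 3 without N23M31 or N24M21. At 7-9 the 6 genes became 0 with litter sums and 1 (Etfb) with the litter as random block, and 1 to 7 were called without 1 litter. With the cardiac score none of the 6 passed, and the 1 gene called was Acaca. The 11 stage calls in embryos became 5 with litter sums, 4 in normal pregnancies alone and 5 with the cardiac score, and the 12 in yolk sacs became 5 in normal pregnancies alone and 14 without yolk sac D28M36C. The 3 calls of the interaction of diabetes and stage in embryos became 1 without a filter and 0 with litter sums or the cardiac score. The 1 call of the interaction of stage and tissue became 0 without a filter and 0 with litter sums. The cause of these changes was not tested. Litter sums leave fewer samples, while the fit with the litter as random block keeps all of them. In yolk sacs the count between maternal conditions was 0 in every fit run.

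With the conceptus as replicate block the tissue counts were 39 and 38, those of the interactions of diabetes and tissue 0 and 0, and that of stage and tissue 1, so the pairing changed none of these counts. Genes under 10 normalized counts, such as Acsl6 and Fads2, lie at the limit of this depth. With size factors within tissue and stage, the mean level of 1 of the 7 genes called in embryos moved by more than 1 SD (Scd1 in diabetic embryos, 89.1 against 76.1), and CPM after TMM scaling set all levels on another scale.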
